A study of Mus musculus with 12 samples.

Results

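The genes described here, measured in mouse prostate, were chosen as receptors and markers of macrophages and dendritic cells, with the other members of their families. They were taken by gene symbol: the C-type lectin genes named Clec and a number, the Cd209 genes, the Ms4a genes other than Ms4a1, the Fcgr and Fcer1 genes, the Siglec genes, Mrc1 and Mrc2, and 11 single genes that include Cd68, Csf1r and Emr1. This gave 78 of the 23284 genes of the deposited table. Of these, 52 passed a filter on low values and were tested: 8 macrophage markers, 4 scavenger and mannose receptors, 5 Fc receptors, 4 sialic acid-binding lectins, 9 Ms4a genes and 22 C-type lectins. Being taken by symbol, the members include genes better known from other cells, such as Clec14a of endothelium, Mrc2 of mesenchymal cells and Siglecg of B cells. Prostate tissue was compared between 6 null libraries, from mice with a null allele on both chromosomes, and 6 libraries of wild-type mice. All mice were 4 months old and of a hybrid background of 129/SvImJ and C57Bl/6J, and neither genotype carried a further allele or treatment that the labels name. RNA was poly-A selected and sequenced on an Illumina HiSeq instrument. The labels do not say whether each library came from a separate animal, so p-values measure the spread between libraries, which may be technical.

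Macrophages and dendritic cells sample their surroundings through families of pattern receptors. Many C-type lectins bind sugars of microbes and dying cells, Fc gamma receptors bind antibody-coated particles, and sialic acid-binding lectins (Siglecs) read the sialic acid of host cells. Several of these receptors have no signalling tail of their own and pair with the adaptors encoded by Tyrobp (DAP12) and Fcer1g, whose tyrosine motifs recruit the kinase Syk. In glands such as the prostate, resident macrophages lie along ducts and in the stroma and depend on the growth factor receptor encoded by Csf1r.

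Values were on a log2 scale, one per gene and library, and with no counts or depths among them the sequencing depth is unknown. Over 1123 olfactory receptor genes, which prostate is not expected to use, the median value was 2.85 and the 95th percentile 3.51, so genes near 3.51 cannot be told from undetected ones. Within each genotype the libraries formed 2 sets of 3 over the 3633 genes whose mean reached 10. Null libraries 1, 2 and 5, null libraries 3, 4 and 6, wild-type libraries 1, 2 and 3, and wild-type libraries 4, 5 and 6 formed the sets. In each set one library lay a median of 0.0293 to 0.0361 from the equal mix of the other two (null libraries 5 and 6 and wild-type libraries 3 and 5), so independence within a set is in doubt. The labels name no batch. Counts of called members, those with a limma adjusted p under 0.05, are therefore given over 12 libraries and over the 4 set means, 2 against 2.

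Most of the receptor genes were lower in null prostate. Over 12 libraries 36 of 52 tested members were called lower and 3 higher, while 13 were not called. Clec4n, Ms4a8a, Siglecg and Siglech reached the filter through the wild-type libraries alone, so for them a lower null level was partly fixed by the filter; the 48 others held 33 lower and 3 higher. Of all 15096 tested genes, 53.1% were called over 12 libraries, 25.1% lower and 28.0% higher, against 69.2% lower and 5.77% higher among the members. The median difference, null minus wild-type, was -0.67 over the members and 0.01 over all tested genes. Null and wild-type libraries did not overlap for 19 members, 18 of them lower in null, or 34.6%, where the share over all genes was 15.2%. The 18 include Clec4n and Ms4a8a, for which the filter favoured such a gap. Over set means 7 members were called, 6 lower and 1 higher, or 13.5%, close to the 14.5% of all tested genes (6.96% lower and 7.58% higher), so that count says nothing particular about the members. Those 7 were Ms4a5, Cd209f, Clec4n, Fcgr2b, Siglec1 and Clec7a, all lower, and Clec2e, higher, and Clec4n is one of the 4 genes that the filter favoured. The counts moved with the settings, among the members and over all genes alike. After quantile normalization 35 members and 54.6% of all tested genes were called, after upper quartile scaling 38 members and 54.6% of genes, and with a minimum value of 5 in the filter 34 of 41 members and 56.5% of genes. With no filter 38 of 78 members and 33.8% of genes were called, with a random block per set 24 members and 33.0% of genes, and against a 1.5-fold change 3 members and 7.0% of genes. The 15 members that lost their call with the block were Lyz2, Itgax, Cd14, Msr1, Fcer1g, Fcgr1, Fcgr3, Siglecg, Siglece, Ms4a8a, Cd209b, Clec11a, Clec14a, Clec16a and Clec18a. Without the library of each set nearest to the mix, 30 members were called, 29 of them lower, beside 37.7% of genes. In bulk tissue, fewer cells of a type and less RNA per cell cannot be told apart.

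The 8 genes classed here as macrophage markers were present in both genotypes and were lower in null libraries. This does not hold for all macrophage genes among the members. Cd163 and Marco, placed below with the scavenger receptors, were not called and not tested, respectively. The lysosomal glycoprotein gene Cd68 stood at 6.63, 6.73 and 6.80 in null libraries and at 7.12, 7.54 and 7.79 in wild-type libraries (lowest, median and highest). Every null library lay under every wild-type library, and the difference was -0.77 (SE 0.13; limma adjusted p = 0.000140). Csf1r, the receptor for colony-stimulating factor 1, stood at 8.31, 8.50 and 8.82 in null and 8.97, 9.29 and 9.59 in wild-type libraries. It too did not overlap between genotypes and differed by -0.75 (SE 0.12; limma adjusted p = 0.000173). For Emr1, which encodes the F4/80 antigen of tissue macrophages, values were 6.70, 7.01 and 7.25 in null and 7.31, 8.14 and 8.73 in wild-type libraries, without overlap. Its difference of -1.08 (SE 0.28; limma adjusted p = 0.00530) was the widest of the 8 markers and also had the widest standard error, and wild-type libraries 1 to 3 averaged 8.72 and wild-type libraries 4 to 6 averaged 7.43. Itgam, the CD11b integrin chain, stood at 6.55, 6.76 and 6.96 in null and 7.19, 7.64 and 8.02 in wild-type libraries, again without overlap, a difference of -0.85 (SE 0.16; limma adjusted p = 0.000418). These 4 markers were still called lower without wild-type libraries 1 to 3, at -0.49 for Cd68, -0.50 for Csf1r, -0.43 for Emr1 and -0.49 for Itgam, and Emr1 was not called without null libraries 1, 2 and 5 (-1.06; limma adjusted p = 0.0547).

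The 4 other markers overlapped between genotypes. Tyrobp, the DAP12 adaptor, was at 6.10, 6.62 and 6.98 in null and 6.84, 7.69 and 8.07 in wild-type libraries and differed by -0.97 (SE 0.22; limma adjusted p = 0.00190). Lyz2, the lysozyme of myeloid cells, was at 9.73, 10.12 and 10.42 in null and 10.31, 10.66 and 11.03 in wild-type libraries, differing by -0.57 (SE 0.16; limma adjusted p = 0.00924). The highest null library of Tyrobp reached into the range of wild-type libraries 4 to 6. That of Lyz2, at 10.42, lay above all of wild-type libraries 4 to 6, at 10.31 to 10.33. Itgax, the CD11c integrin chain of dendritic cells and some macrophages, had 5.63, 6.24 and 6.46 in null and 6.24, 6.55 and 7.10 in wild-type libraries and a difference of -0.46 (SE 0.18; limma adjusted p = 0.0394). For the lipopolysaccharide co-receptor gene Cd14 the values were 6.97, 7.19 and 7.44 in null and 7.36, 7.55 and 7.81 in wild-type libraries, with a difference of -0.37 (SE 0.11; limma adjusted p = 0.0118). Without wild-type libraries 1 to 3, Tyrobp was called lower at -0.52, while Lyz2, Itgax and Cd14 were not called, at -0.24, -0.15 and -0.19 (limma adjusted p = 0.135, 0.513 and 0.219). Lyz2 was also not called without null libraries 1, 2 and 5 (limma adjusted p = 0.0990), and the call of Itgax ended on leaving out any one of null libraries 2, 3 and 5 and wild-type libraries 1, 2 and 3 (limma adjusted p = 0.0587 to 0.0930). All 8 markers were called lower over 12 libraries, with a median difference of -0.76, and none was called over set means by limma, where 4 had an unadjusted p under 0.05 and adjusted p ran from 0.0540 for Csf1r to 0.289 for Itgax.

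**Figure D1:**
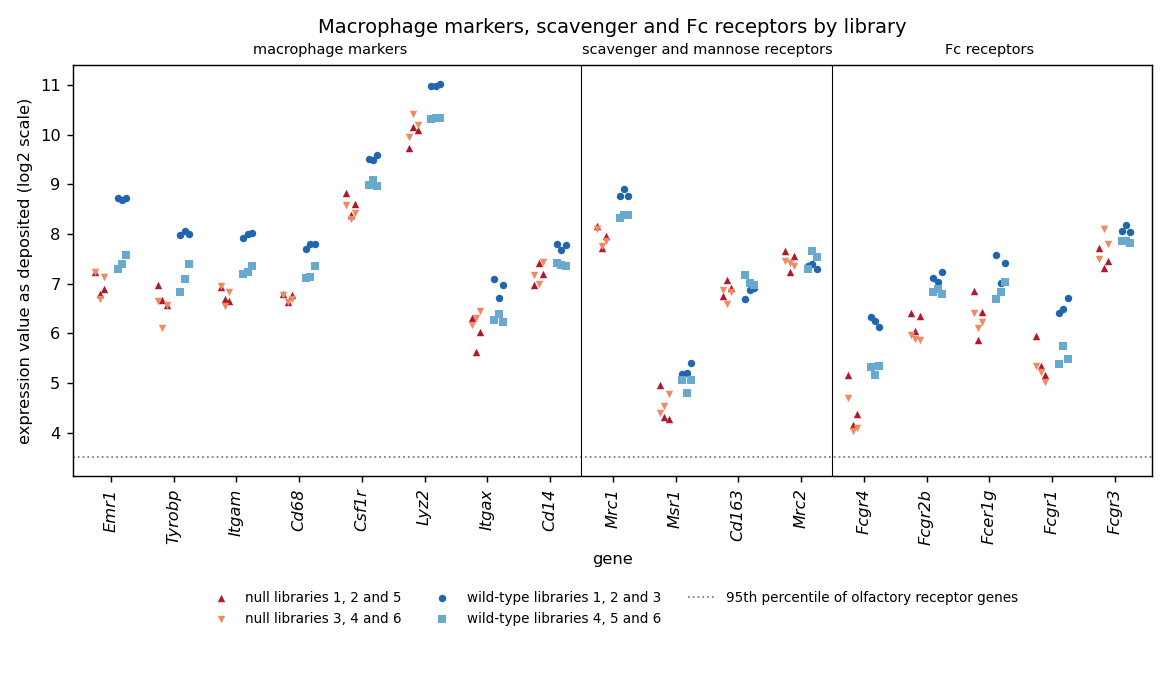
Expression values as deposited (y axis, log2 scale) of the 8 macrophage markers, 4 scavenger and mannose receptors and 5 Fc receptors that were tested; each point is 1 library, null libraries on the left of each gene and wild-type libraries on the right, and the dotted line is the 95th percentile of olfactory receptor genes. Wild-type libraries 1 to 3 stand highest for most genes, as for Emr1 at a mean of 8.72 against 7.43 in wild-type libraries 4 to 6, while Cd163 and Mrc2 overlap throughout.

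Scavenger receptors take up modified lipoproteins, haemoglobin complexes and matrix fragments, and they divided into 2 genes that were lower and 2 that were not called. The mannose receptor gene Mrc1 stood at 7.71, 7.91 and 8.16 in null and 8.33, 8.57 and 8.92 in wild-type libraries. All null libraries were under all wild-type libraries, with a difference of -0.66 (SE 0.12; limma adjusted p = 0.000226). Msr1, the class A macrophage scavenger receptor, stood at 4.28, 4.47 and 4.95 in null and 4.80, 5.12 and 5.40 in wild-type libraries, with a difference of -0.58 (SE 0.15; limma adjusted p = 0.00410) and null library 1 inside the wild-type range. Mrc1 was still called lower without wild-type libraries 1 to 3, and Msr1 was not called there (-0.43; limma adjusted p = 0.0724). Cd163, the haemoglobin-haptoglobin receptor of resident macrophages, was at 6.59, 6.85 and 7.07 in null and 6.69, 6.94 and 7.18 in wild-type libraries and was not called (-0.10, SE 0.10; limma adjusted p = 0.408). In contrast to Mrc1, its genotypes overlapped almost entirely. Mrc2, a collagen receptor of fibroblasts and other mesenchymal cells, differed by 0.02 (SE 0.09; limma adjusted p = 0.834). Marco did not pass the filter, with means of 2.86 in null and 3.34 in wild-type libraries, under the 3.51 of undetected genes.

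All 5 tested Fc receptor genes were lower in null libraries over 12 libraries, with a median difference of -0.78, and Fcgr4 and Fcgr2b stayed so with a random block per set (limma adjusted p = 0.0543 for Fcer1g, 0.0939 for Fcgr1 and 0.207 for Fcgr3). Fcgr4, an activating receptor for IgG2 antibodies, stood at 4.05, 4.26 and 5.16 in null and 5.16, 5.74 and 6.33 in wild-type libraries. Null library 1 touched the lower end of the wild-type range and the 5 others lay under it. The difference was -1.33 (SE 0.25; limma adjusted p = 0.000479), or -0.85 without wild-type libraries 1 to 3. Fcgr2b, the inhibitory receptor of the family, had 5.86, 6.01 and 6.41 in null and 6.79, 6.96 and 7.23 in wild-type libraries, with no overlap. It differed by -0.89 (SE 0.12; limma adjusted p = 2.19e-05) and was the Fc receptor gene called over set means (adjusted p = 0.0459 with limma). The shared signalling chain gene Fcer1g was at 5.87, 6.32 and 6.85 in null and 6.70, 7.03 and 7.59 in wild-type libraries, differing by -0.78 (SE 0.18; limma adjusted p = 0.00183), and again null library 1 alone overlapped. Fcgr1, the high-affinity IgG receptor, was at 5.03, 5.28 and 5.94 in null and 5.39, 6.08 and 6.70 in wild-type libraries, a difference of -0.70 (SE 0.24; limma adjusted p = 0.0225) with null library 1 inside the wild-type range and the other null libraries under it. For Fcgr3, a low-affinity activating receptor, values were 7.31, 7.61 and 8.10 in null and 7.82, 7.96 and 8.18 in wild-type libraries, and the difference of -0.32 (SE 0.12; limma adjusted p = 0.0331) was the smallest of the family. Without wild-type libraries 1 to 3, Fcgr1 differed by -0.20 (limma adjusted p = 0.423) and Fcgr3 by -0.20 (limma adjusted p = 0.302), so neither call held there. Single libraries mattered too: the call of Fcgr1 ended on leaving out any one of wild-type libraries 1, 2 and 3 (limma adjusted p = 0.0512 to 0.0527), and that of Fcgr3 on leaving out any one of null libraries 2, 3 and 5 and wild-type libraries 1, 2 and 3 (limma adjusted p = 0.0623 to 0.0747). Fcer1a, the IgE-binding chain of mast cells, did not pass the filter, with means of 3.90 in null and 4.06 in wild-type libraries.

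Among the Siglecs, 3 of 4 tested genes were lower in null libraries. Siglec1, also known as CD169 and carried by resident macrophages, stood at 5.10, 5.58 and 6.04 in null and 6.17, 6.43 and 6.84 in wild-type libraries. The genotypes did not overlap, the difference was -0.91 (SE 0.16; limma adjusted p = 0.000224), and it was also called over set means (adjusted p = 0.0486 with limma). Siglecg, an inhibitory receptor best known on B cells, stood at 3.70, 3.97 and 4.48 in null and 4.19, 4.70 and 5.50 in wild-type libraries and differed by -0.74 (SE 0.24; limma adjusted p = 0.0183). It passed the filter through the wild-type libraries, with 2 null libraries at the minimum of 4, so its call is no independent evidence of a fall. Siglece, an inhibitory receptor of myeloid cells, was at 4.52, 4.71 and 5.13 in null and 4.72, 5.27 and 5.74 in wild-type libraries, with a difference of -0.48 (SE 0.18; limma adjusted p = 0.0404). Neither of these calls held without wild-type libraries 1 to 3, where limma adjusted p was 0.358 for Siglecg and 0.577 for Siglece. For Siglece the call also ended on leaving out any one of null libraries 2, 3, 4 and 6 and wild-type libraries 1, 2 and 3 (limma adjusted p = 0.0602 to 0.0954). Siglech, a marker of plasmacytoid dendritic cells, was not called (-0.22, SE 0.18; limma adjusted p = 0.315). Siglec5 and Siglec15 had means under 3.51 in both genotypes.

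Of the 22 tested C-type lectin genes, 12 were lower and 3 higher in null libraries, and 7 were not called. The largest fall was that of Cd209f, a mouse relative of the dendritic cell lectin DC-SIGN, at 4.99, 5.23 and 5.78 in null and 6.37, 6.84 and 7.10 in wild-type libraries. No library of one genotype reached the range of the other, and the difference was -1.48 (SE 0.16; limma adjusted p = 2.73e-06), with adjusted p = 0.0135 over set means. Clec10a, the galactose-type lectin of macrophages and dendritic cells, stood at 5.51, 5.97 and 6.46 in null and 6.69, 7.22 and 7.34 in wild-type libraries, without overlap. Its difference was -1.08 (SE 0.19; limma adjusted p = 0.000240), and the null sets stood apart as well, with libraries 1, 2 and 5 averaging 6.39 and libraries 3, 4 and 6 averaging 5.61. Clec7a, which encodes Dectin-1, a receptor for fungal beta-glucans, was at 5.33, 5.61 and 6.03 in null and 6.23, 6.79 and 7.05 in wild-type libraries. It did not overlap and differed by -1.06 (SE 0.17; limma adjusted p = 0.000113), and it lay at the threshold over set means (adjusted p = 0.0499 with limma).

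Clec4n, which encodes Dectin-2, a receptor that signals through Fcer1g, stood at 3.29, 3.62 and 4.05 in null and 4.24, 4.67 and 5.22 in wild-type libraries. The genotypes did not overlap, and the difference was -1.01. With 1 null library at the minimum of 4 it passed the filter through the wild-type libraries alone, so the difference is given as a description, without a test. Clec12a, an inhibitory receptor of myeloid cells, had 5.39, 5.64 and 6.12 in null and 6.28, 6.67 and 7.03 in wild-type libraries and differed by -1.004 (SE 0.18; limma adjusted p = 0.000236), also without overlap. The neighbouring dendritic cell immunoreceptor genes fell together, Clec4a1 by 0.92, Clec4a3 by 0.81 and Clec4a2 by 0.78, with limma adjusted p from 0.00161 to 0.00438. These 3 genes are close paralogs, as are genes within the Cd209 and Ms4a families, and no source used here states how shared reads were assigned. Cd209g fell by 0.98 and Cd209b by 0.36, while Cd209a and Cd209d were not called. Without wild-type libraries 1 to 3, limma adjusted p was 0.0560 for Clec4a3 and 0.222 for Cd209b. The call of Cd209b also ended on leaving out any one of null libraries 2, 4 and 6 and wild-type libraries 1, 2, 3, 5 and 6 (limma adjusted p = 0.0545 to 0.0744).

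**Figure D2:**
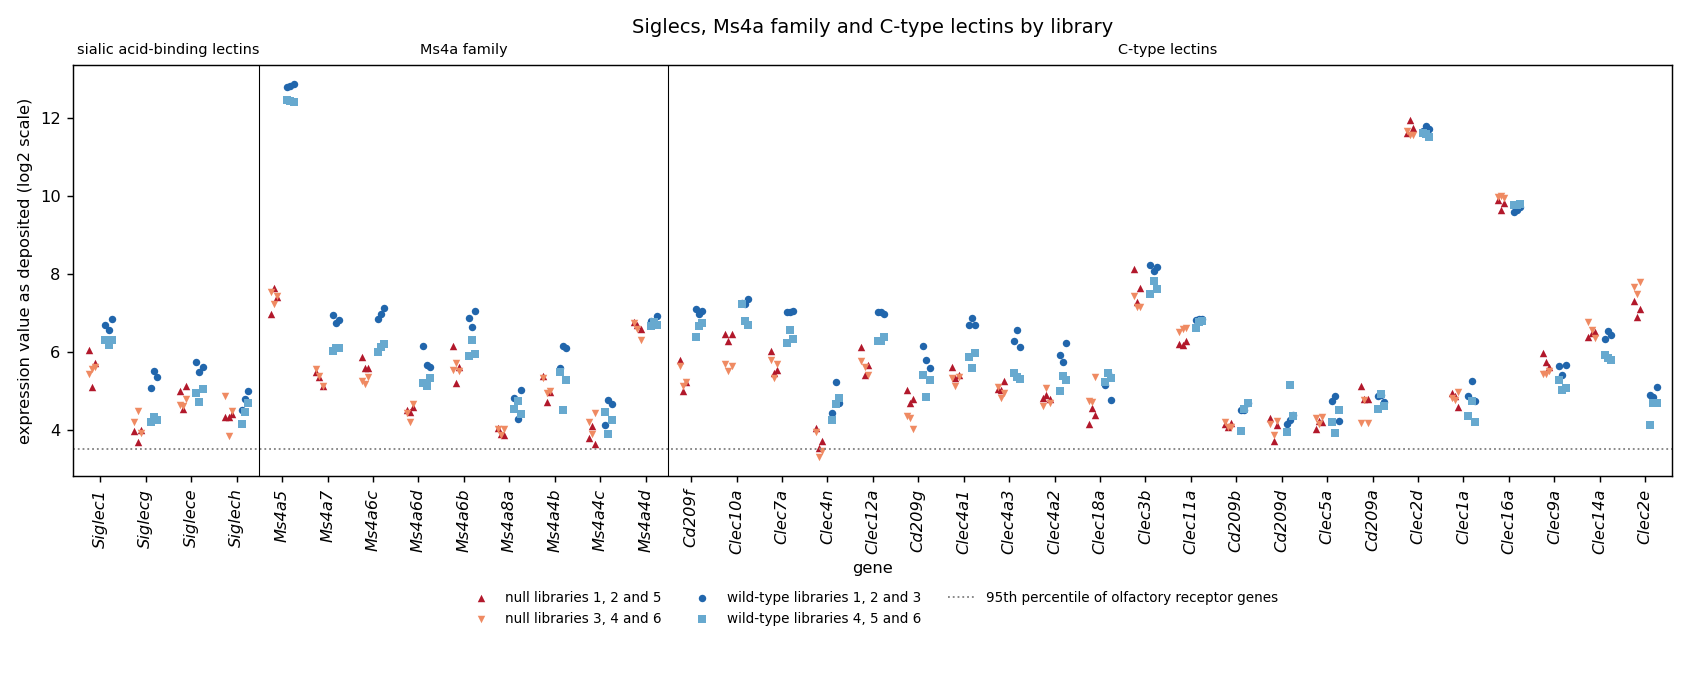
Expression values as deposited (y axis, log2 scale) of the tested Siglec, Ms4a and C-type lectin genes, ordered within each class from the most negative to the most positive difference; each point is 1 library, null left and wild-type right of each gene, and the dotted line is the 95th percentile of olfactory receptor genes. Ms4a5, at a null median of 7.41 and a wild-type median of 12.62, and Clec2e, at 7.39 in null and 4.77 in wild-type libraries, stand apart from the smaller and more overlapping shifts of the other genes.

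Lectins of the cross-presenting dendritic cell and of cells outside the myeloid lineage were higher, lower or not called. Clec9a, a receptor for exposed actin of dead cells on cross-presenting dendritic cells, was at 5.42, 5.55 and 5.98 in null and 5.02, 5.34 and 5.67 in wild-type libraries and was not called (0.26, SE 0.14; limma adjusted p = 0.137). It was called higher in null without wild-type libraries 1 to 3, with a difference of 0.49 and limma adjusted p = 0.0203. It was also called higher after quantile normalization (0.36; limma adjusted p = 0.0196). Clec14a, an endothelial lectin, stood at 6.34, 6.49 and 6.76 in null and 5.77, 6.11 and 6.52 in wild-type libraries and was called higher by 0.37 (SE 0.14; limma adjusted p = 0.0404). The wild-type libraries that lay low were 4 to 6, and without them the difference was 0.08 (limma adjusted p = 0.618). Its call also ended on leaving out any one of null libraries 2, 3, 4 and 5 and wild-type libraries 4, 5 and 6 (limma adjusted p = 0.0545 to 0.0928). Clec16a, a gene of endosomal and autophagy control despite its name, was called higher by 0.16 (SE 0.06; limma adjusted p = 0.0367) and lost that call without wild-type libraries 1 to 3 (limma adjusted p = 0.305). Its call ended as well on leaving out any one of null libraries 1, 3, 4 and 6 and wild-type libraries 1, 2 and 3 (limma adjusted p = 0.0572 to 0.0824), and after upper quartile scaling (limma adjusted p = 0.156). Clec11a, a secreted growth factor of stroma and bone, fell by 0.38 and Clec18a by 0.58, with limma adjusted p = 0.00529 and 0.0184, and neither was called without null libraries 1, 2 and 5 (-0.20 for Clec11a and -0.29 for Clec18a). Clec3b, which encodes the plasma protein tetranectin, and Clec1a were not called.

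Clec2e was the member with the largest rise. The Clec2 genes lie in the natural killer gene complex of chromosome 6 and encode lectin-related surface proteins, several of which are ligands of Klrb1 receptors on natural killer cells. Clec2e stood at 6.88, 7.39 and 7.78 in null and 4.11, 4.77 and 5.10 in wild-type libraries. The lowest null library was well above the highest wild-type library, and the difference was 2.65 (SE 0.18; limma adjusted p = 2.66e-08), or 6.26-fold higher, with adjusted p = 0.00553 over set means. Its next protein-coding neighbours in RefSeq order did not share this rise. Clec2d, on one side, was at 11.54, 11.63 and 11.95 in null and 11.51, 11.63 and 11.78 in wild-type libraries (0.04, SE 0.07; limma adjusted p = 0.687). On the other side, Klrb1f did not pass the filter, and Clec2g and Clec2i, also not tested, had lower means in null libraries, at 3.28 and 3.60, than in wild-type libraries, at 4.05 and 4.28. In a fit with no filter both were called lower, with limma adjusted p = 0.00540 for Clec2g and 0.0143 for Clec2i.

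The Ms4a genes encode tetraspanning membrane proteins related to the B cell antigen CD20, and 6 of 9 tested genes were lower in null libraries. Ms4a5 changed far more than any other member. It stood at 6.96, 7.41 and 7.63 in null and 12.40, 12.62 and 12.87 in wild-type libraries. No library came near the range of the other genotype, the sets averaged 7.33 and 7.39 in null and 12.82 and 12.43 in wild-type libraries, and the difference was -5.27 (SE 0.12; limma adjusted p = 8.80e-13), or 38.5-fold lower on the deposited log2 scale, with adjusted p = 0.000223 over set means. The wild-type mean of Ms4a5, 12.63, was above that of every macrophage marker among the members, of which Lyz2 was highest at 10.66. Which cells of the prostate carry Ms4a5 or Clec2e was not tested. Ms4a7, a gene of mature macrophages, was at 5.12, 5.37 and 5.55 in null and 6.02, 6.42 and 6.94 in wild-type libraries. It differed by -1.11 (SE 0.17; limma adjusted p = 9.34e-05) and did not overlap. Ms4a6c fell by 1.07, Ms4a6d by 1.04, Ms4a6b by 0.83 and Ms4a8a by 0.68, with limma adjusted p from 0.000116 for Ms4a6d to 0.00448 for Ms4a6b. Ms4a8a passed the filter through the wild-type libraries, with 3 null libraries at the minimum. Of these 4 genes, only Ms4a6b overlapped between genotypes, and its call did not hold without wild-type libraries 1 to 3 (limma adjusted p = 0.0946). Ms4a4b, known from T cells, Ms4a4c and Ms4a4d were not called, with differences of -0.46, -0.35 and -0.16.

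The Ms4a genes lie next to each other on chromosome 19, and the size of the Ms4a5 difference was not shared along the cluster. On one side of Ms4a5, Ms4a1, the CD20 gene of B cells, averaged 4.29 ± 0.31 in null and 6.19 ± 0.31 in wild-type libraries (SD, n = 6 each), a difference of -1.90 (limma adjusted p = 5.05e-07). On the other side the nearest gene with values was Ms4a7. Ccdc86, the first tested gene past the cluster, averaged 8.05 in null and 7.92 in wild-type libraries and was not called (limma adjusted p = 0.242). The mast cell gene Ms4a2, the basophil and progenitor gene Ms4a3, Ms4a10, Ms4a13, Ms4a15 and Ms4a18 did not pass the filter and had means under 3.51 in both genotypes.

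**Figure D3:**
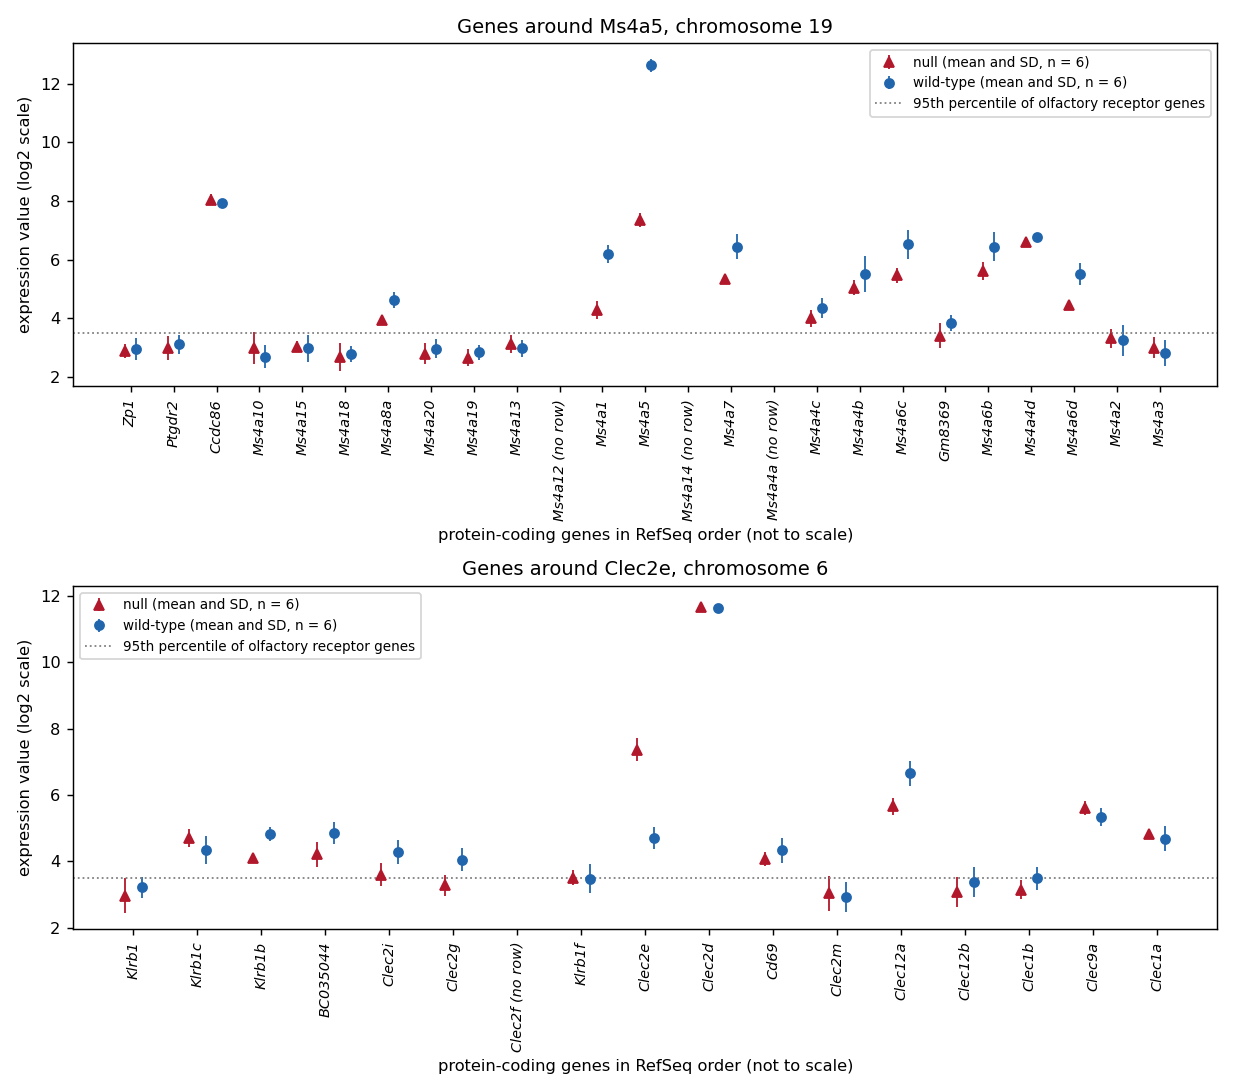
Mean expression values (y axis, log2 scale; bars are SD over 6 libraries) of the protein-coding genes around Ms4a5 and around Clec2e, in RefSeq gene order with equal spacing (x axis, not to scale); null left and wild-type right of each position. Ms4a5 is the one gene of its cluster with a gap of more than 5 on this scale between genotypes, and Clec2d beside Clec2e has nearly equal means.

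The bases before the transcription start are shown for Ms4a5 and Clec2e, the members that moved most, and for Itgam and Mrc1, macrophage genes that fell without overlap. Promoter sequences from RefSeq (build GRCm38.p6) were found for 62 of the 78 members. Each line gives the 250 bases before the first listed start, 5′ to 3′ on the strand of the gene, with capitals marking GAGGAA or its reverse complement TTCCTC, letters found in binding sites of the myeloid transcription factor PU.1.
Ms4a5: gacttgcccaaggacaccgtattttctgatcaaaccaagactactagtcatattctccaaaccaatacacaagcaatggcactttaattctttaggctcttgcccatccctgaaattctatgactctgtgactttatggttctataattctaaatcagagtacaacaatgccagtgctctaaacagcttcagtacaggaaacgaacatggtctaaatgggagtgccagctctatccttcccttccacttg
Clec2e: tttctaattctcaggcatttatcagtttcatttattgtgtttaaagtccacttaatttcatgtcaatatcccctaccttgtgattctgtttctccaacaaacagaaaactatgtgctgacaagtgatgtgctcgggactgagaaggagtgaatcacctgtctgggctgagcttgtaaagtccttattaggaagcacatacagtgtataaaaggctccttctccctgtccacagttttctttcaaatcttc
Itgam: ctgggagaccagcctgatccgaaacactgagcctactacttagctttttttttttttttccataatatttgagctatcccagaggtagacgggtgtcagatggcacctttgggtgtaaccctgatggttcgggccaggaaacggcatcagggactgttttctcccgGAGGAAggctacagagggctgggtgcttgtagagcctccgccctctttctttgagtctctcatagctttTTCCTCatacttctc
Mrc1: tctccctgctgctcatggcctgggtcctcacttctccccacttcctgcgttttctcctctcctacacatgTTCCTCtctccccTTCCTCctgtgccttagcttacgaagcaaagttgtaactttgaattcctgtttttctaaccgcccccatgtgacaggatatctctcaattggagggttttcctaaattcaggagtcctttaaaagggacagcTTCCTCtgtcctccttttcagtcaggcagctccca
These windows are at chr19:11283814-11284063 on the minus strand, chr6:129100904-129101153 on the minus strand, chr7:128062390-128062639 on the plus strand and chr2:14229164-14229413 on the plus strand. The windows of Itgam and Mrc1 held 2 and 3 matches, and those of Ms4a5 and Clec2e held none. Itgam and Mrc1 do not stand for all members that fell without overlap. Among others of these, Clec12a held 2 matches, Cd68 and Clec7a held 1 each, and Cd209f, Fcgr2b, Ms4a7, Ms4a6c and Clec4a3 held none. Over all genes in the promoter table, 23.1% of 27025 windows held the 6 letters on either strand, against 27 of 62 members (43.5%) 19 of 40 tested members (47.5%) and 13 of the 27 members with a window that were called lower (48.1%). The longer form GAGGAAGT, or ACTTCCTC on the other strand, which contains the shorter one, was found in 2.44% of all windows and in 1 of 62 members. A match describes letters and is not a shown binding site.

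Wild-type libraries also differed among themselves in these genes. Libraries 1 to 3 had a higher mean than libraries 4 to 6 for 47 of 52 tested members, or 90.4%, where the share over all tested genes was 47.4%. The median difference of wild-type libraries 4 to 6 from libraries 1 to 3 was -0.47 over the members, beside -0.42 for all null libraries minus wild-type libraries 4 to 6 and -0.90 for all null libraries minus wild-type libraries 1 to 3. For 38 of 52 members, or 73.1%, both null set means lay under wild-type libraries 4 to 6 and those under libraries 1 to 3, an order that 13.9% of all tested genes had. Emr1 followed it with 6.98 and 7.02 in the null sets, 7.43 in wild-type libraries 4 to 6 and 8.72 in libraries 1 to 3. Fcgr1 and Siglecg also lay nearer to the null level in wild-type libraries 4 to 6, at 5.54 and 4.26, than to wild-type libraries 1 to 3, at 6.54 and 5.30. Without wild-type libraries 1 to 3, 24 members (46.2%) were called lower and 3 higher, beside 45.2% of all tested genes called, 21.5% lower and 23.7% higher. Without wild-type libraries 4 to 6, 37 members were called lower and 2 higher, beside 46.8% of genes called, 21.9% lower and 24.8% higher. These counts include members that passed the filter through the wild-type libraries alone. Clec4n, Ms4a8a, Siglecg and Siglech are among the 38 above, Clec4n and Ms4a8a among the 24 and the 37, and Siglecg among the 37. The median absolute difference between the set means over the tested members was 0.14 in null and 0.47 in wild-type libraries. Over the 3633 genes used to find the sets, another measure was taken, the gap between single libraries of different sets. Its median was 0.144 in null and 0.109 in wild-type libraries. These genes all had a mean of 10 or more, so the sizes of the 2 measures cannot be compared directly. Which of the wild-type sets is nearer to the usual level of these receptors cannot be told from these libraries.

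**Figure D4:**
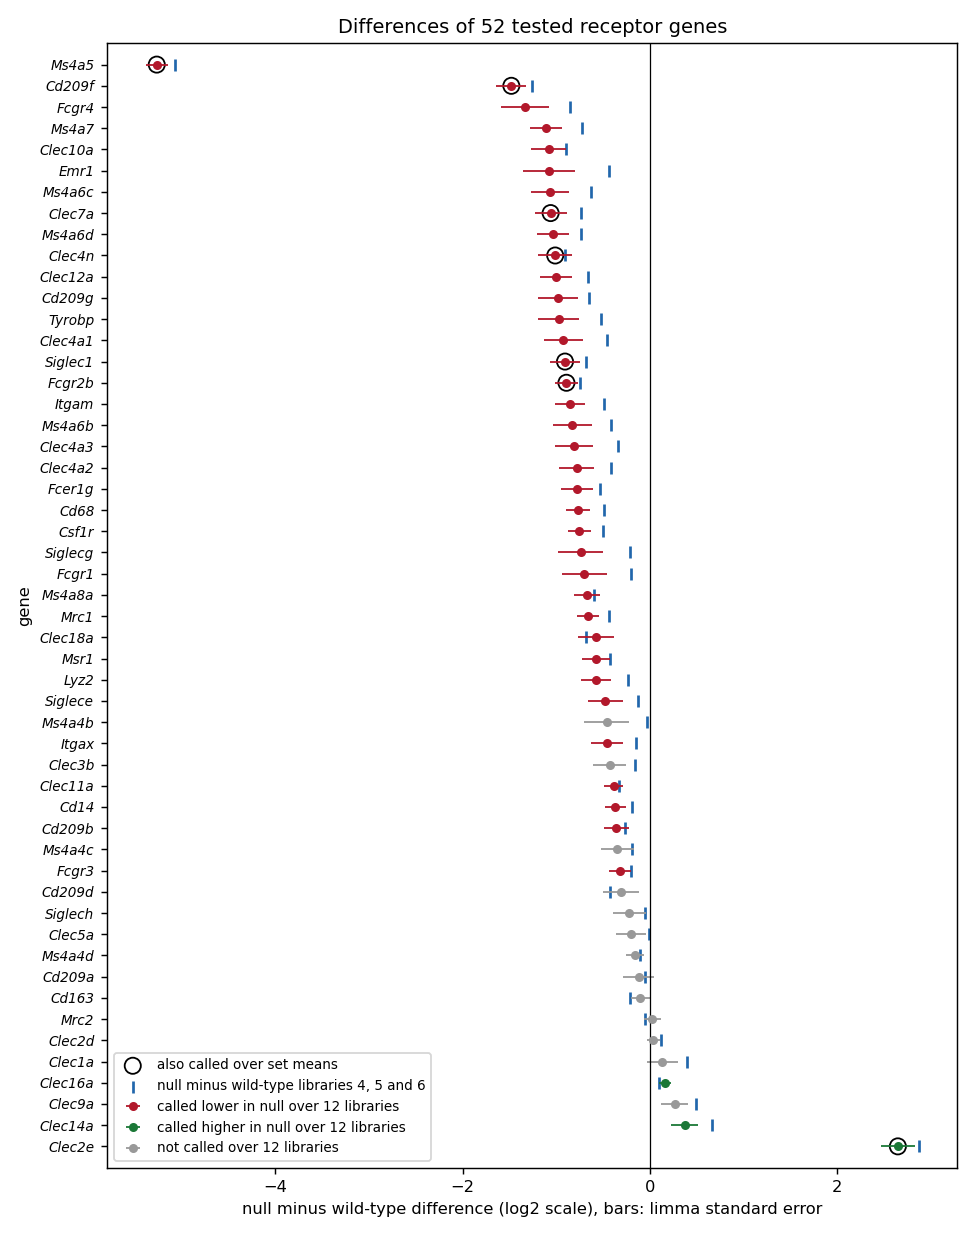
Difference, null minus wild-type (x axis, log2 scale), of the 52 tested members (y axis) with its limma standard error; colours give the call over 12 libraries, rings mark the 7 members also called over set means, and blue ticks give the difference of all null libraries from wild-type libraries 4 to 6 alone. Most blue ticks lie nearer to 0 than the points, as for Emr1 at -0.43 against -1.08, while Ms4a5, Cd209f and Clec2e keep most of their size.

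Genes that act with these receptors were also tested, and their counts stand against 25.1% lower and 28.0% higher over all tested genes, 21.5% lower without wild-type libraries 1 to 3, and 14.5% called over set means. Of 20 genes of adaptor and kinase signalling below them, 13 (65.0%) were lower, 1 higher and 6 not called, with a median difference of -0.50, and over set means 2 were called, both lower. Lcp2, the adaptor SLP-76, averaged 5.45 ± 0.22 in null and 6.99 ± 0.11 in wild-type libraries (SD, n = 6 each) and differed by -1.54 (limma adjusted p = 4.98e-08; adjusted p = 0.00645 over set means). Btk, a Tec family kinase, averaged 4.67 ± 0.12 in null and 5.75 ± 0.32 in wild-type libraries (SD, n = 6 each), a difference of -1.08 that also passed over set means (limma adjusted p = 0.0434). Malt1, a protease downstream of Card9, was the gene called higher, by 0.28. The kinase Syk averaged 6.03 ± 0.38 in null and 7.37 ± 0.66 in wild-type libraries (SD, n = 6 each), a difference of -1.34 (limma adjusted p = 0.00114). Without wild-type libraries 1 to 3, 7 of the 20 genes were lower and 2 higher. Of 11 tested growth factor and receptor genes, 6 (54.5%) were lower, 1 higher and 4 not called, and 3 were lower without wild-type libraries 1 to 3. Over set means 1 was called, Tgfbr1. Csf1, the ligand of Csf1r, fell by 0.66 (limma adjusted p = 0.000923), and Il34, its other ligand, was not called (limma adjusted p = 0.534). Csf3r, the receptor of granulocyte colony-stimulating factor, fell by 0.92, and Tgfbr1, a TGF-beta receptor that many cell types carry, rose by 0.38. Of 12 tested transcription factor genes, 6 were lower, 2 higher and 4 not called, with 4 lower when wild-type libraries 1 to 3 were left out. Over set means 3 were called, Irf4 and Bcl11a lower and Id2 higher. Irf4 fell by 1.44 and Bcl11a by 0.67, while Id2, a regulator of dendritic and innate lymphoid cells that epithelium also expresses, rose by 0.56.

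Lists of cell type markers moved as follows, and their part in the receptor differences was not tested. The shares over all tested genes are those given for the signalling genes. Of 17 tested macrophage markers, 11 of them members, 15 (88.2%) were lower and 2 not called (Cd163 and Mertk), with 11 lower without wild-type libraries 1 to 3 and 2 over set means, C1qc and Trem2. Summed on the linear scale they reached 4966 to 5647 over the null libraries and 6585 to 9352 over the wild-type libraries. Mertk and Lyz2 weighed most in this sum. Mertk averaged 10.79 in null and 10.55 in wild-type libraries, and Lyz2 averaged 10.09 in null and 10.66 in wild-type libraries. C1qb fell by 1.38, the complement gene C1qc by 1.26 and Trem2, a lipid receptor that signals through Tyrobp, by 0.84. Of 11 tested dendritic cell genes, 4 were lower, 1 higher and 6 not called (2 lower and 2 higher without wild-type libraries 1 to 3, and Itgae alone over set means). Those lower were Clec10a (-1.08), Batf3 (-0.88), Ccr7 (-0.79) and Itgax (-0.46). Xcr1 and Zbtb46, named after their values were seen, were among those not called, with differences of -0.02 and -0.03. The null mean of Xcr1, 4.65, lay between wild-type libraries 1 to 3, at 5.11, and wild-type libraries 4 to 6, at 4.23. Itgae, the CD103 integrin chain that intraepithelial lymphocytes also carry, was higher by 0.78. Of 12 genes of leukocytes in general, 10 were lower (6 without wild-type libraries 1 to 3, and none by limma over set means, where 6 had an unadjusted p under 0.05) and 2 higher, among those lower Cd37 and Itgb2, at -1.05 and -1.04. Those called higher were Lcp1, by 0.30, and Cd52, which epithelium of the epididymis also expresses, by 4.49. Over set means Cd52 alone was called. Leaving Cd52 aside, the sum ran between 5412 and 6455 in null libraries, between 4969 and 5018 in wild-type libraries 4 to 6 and between 7168 and 7302 in wild-type libraries 1 to 3, but Lcp1 made up most of it. With Lcp1 left out as well, it ran between 1053 and 1437 in null libraries, under the 1554 to 1651 of wild-type libraries 4 to 6 and the 2947 to 3148 of wild-type libraries 1 to 3.

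Other blood cell lists were lower or divided. Of 7 tested B cell genes, 6 were lower, Cd22 at -2.004 and Cd79a at -1.93 among them, and 3 were lower over set means. The exception was Cr2, a complement receptor that follicular dendritic cells also carry, which was not called (1.30; limma adjusted p = 0.136) and stood at 6.78 in null libraries 1, 2 and 5 and 3.73 in null libraries 3, 4 and 6. The list summed to between 112 and 270.1 over null and between 237 and 549 over wild-type libraries, and without Cr2 to between 84.7 and 139 over null and between 225 and 531 over wild-type libraries. Both tested eosinophil genes were lower, also over set means, Il5ra at -2.42 and Prg2 at -2.03, while the defining genes Epx and Siglec5 lay under 3.51 in both genotypes. All 4 tested neutrophil genes were lower, among them Mmp8 (-2.31), Ltf (-2.03) and Csf3r, with 2 of them lower without wild-type libraries 4 to 6 and Mmp8 alone over set means. Mmp8 reached the filter through the wild-type libraries alone, at 2.75 to 3.62 in null and 4.99 to 6.17 in wild-type libraries. Its lower call was thus largely fixed by the filter, and that of Ltf, with null libraries under 4, in part. Ltf averaged 5.56 in null libraries 1, 2 and 5 and 3.60 in null libraries 3, 4 and 6, against 5.37 in wild-type libraries 1 to 3 and 7.86 in wild-type libraries 4 to 6, so the sets overlapped. The other 7 genes of the list with values did not pass the filter. Camp, Cxcr2, Elane, Mpo and Ngp had means under 3.51 in both genotypes. S100a8 averaged 3.09 in null and 3.75 in wild-type libraries, and S100a9 averaged 3.58 in null and 3.87 in wild-type libraries. Of 12 tested T and natural killer cell genes, 4 (33.3%) were lower, near the share over all genes (1 without wild-type libraries 1 to 3 and 7 without wild-type libraries 4 to 6), and 2 were higher, the granzyme genes Gzma by 1.01 and Gzmb by 0.57, and Cd2 fell by 1.07; none was called over set means by limma, where 1 lower and 2 higher had an unadjusted p under 0.05. Of 6 tested mast cell genes only Kit, which other cell types also carry, was called, higher by 0.67, and by limma none was called without wild-type libraries 4 to 6 or over set means, where 0 had an unadjusted p under 0.05. Among the tissue lists, 1 of 10 endothelial genes was higher (Flt1, by 0.62) and 1 lower (Emcn, -2.07), 1 of 10 fibroblast genes was higher (Col6a1, by 0.20) and 2 lower (Dcn -0.32 and Fbln1 -0.50), and 2 of 6 epithelial genes were higher and 3 lower (Krt8 -0.44, Cdh1 -0.44 and Krt18 -0.30). Leaving out wild-type libraries 1 to 3 gave 4 endothelial genes higher and 1 lower, no fibroblast gene higher and 1 lower, and no epithelial gene higher and 3 lower. Over set means 1 gene of the 3 lists was called, Emcn.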

How the data were processed

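RNA-seq of prostate from 6 null and 6 wild-type libraries was analysed. The authors' deposited table gives 1 log2 value per gene and library; its form is that of variance-stabilised counts, but no source used here names the transformation. Software named without roles in the submitters' processing notes is DESeq, Cufflinks 2.0.2, TopHat, TopHat2 2.0.4 and CASAVA 1.8.2, with build mm9. No counts were analysed here, so no count model was used, no pseudocount was added and precision follows from the spread between libraries only.

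In R 4.3.3, limma 3.58.1 (trended, robust variances) was fitted to the deposited log2 values of all genes that reached 4 in 6 or more libraries. P-values were adjusted by Benjamini-Hochberg over all 15096 tested genes, with a threshold of 0.05. The fit was checked on simulated data. Of the 78 members, 26 did not pass, 19 of them under 3.51 in both genotype means; of the 52 that passed, 44 had all 12 libraries at the minimum, and 4 passed through the wild-type libraries alone (Clec4n, Ms4a8a, Siglecg and Siglech).

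A second fit used the means of the 4 sets of 3 libraries. Members and marker lists were chosen with earlier results of these data known. Library values are given for the defining markers and for up to 5 called members of each class by size of difference; members called higher or called over set means are all named, and of each other list up to 3 called genes by adjusted p, with further genes (Syk, Csf1, Il34, Trem2, Xcr1 and Zbtb46 among them) added after their values were seen. The alternatives were a filter minimum of 5, no filter, limma without trend, upper quartile scaling, quantile normalization, a test against a 1.5-fold change, a random block per set and the leaving out of libraries or sets. The leaving out of each set mean, and of the library nearest to a mix in every set, was chosen after seeing the data. Promoter sequences and gene order came from RefSeq, build GRCm38.p6, and coordinates are of that build. The targeted gene is not reported here.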

Additional observations from a re-analysis of the deposited data

Results flagged for a closer look

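In 4 of the 104 groups of 6 libraries examined, over the 52 tested members, 1 library stood far from the others of its genotype, where chance gives about 1 in 20 groups. Fcgr1 was highest in null library 1, at 5.94, against 5.03 to 5.35 in the other null libraries. Cd209b was lowest in wild-type library 4, at 3.98, against 4.52 to 4.70 in the other wild-type libraries. Clec11a was also lowest in wild-type library 4, at 6.61, against 6.77 to 6.83 in the others. Cd209d was highest in wild-type library 5, at 5.16, against 3.94 to 4.37 in the others.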

How the results depend on the processing

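Against a 1.5-fold change 1056 genes and 3 members were called (Ms4a5, Cd209f and Clec2e), and over set means 344 genes and 2 members; with a random block per set 4984 genes and 24 members were called. Over set means without trend 1319 genes were called, and 580 to 1270 genes and 2 to 8 members with 1 set mean left out, where the lone set is assumed to vary like the pair of the other genotype. With single libraries left out 7586 to 7887 genes and 33 to 39 members were called, and 32 of the 39 members kept their call throughout. Upper quartile scaling shifted the median of all genes by -0.071 and gave 3367 genes higher and 4869 lower, against 4224 and 3789 as deposited; 37 of the 39 members kept their call. Sign changes were limited to 5 members that were not called. Cd163 was at 0.012 without wild-type libraries 4 to 6, where Clec1a was at -0.13, and Cd209a at 0.14 without null libraries 3, 4 and 6. Clec2d was at -0.076 after quantile normalization, -0.035 after upper quartile scaling, -0.043 without wild-type libraries 4 to 6, -0.052 without null libraries 1, 2 and 5, and -0.018 to 0.064 with single libraries left out. Mrc2 was at -0.046 after upper quartile scaling, -0.048 without wild-type libraries 1 to 3, -0.011 without null libraries 1, 2 and 5, and -0.019 to 0.073 with single libraries left out. The cause was not tested. No paired analysis was possible because the labels and columns carry no replicate numbers, animals or batches that link the genotypes. Depth is unknown, and genes near 3.51 cannot show a fall.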

Other observations

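Within libraries, 1 of 3 differences between Fc gamma receptors passed a test between genotypes. These differences of log2 values between genes of 1 library were chosen after the values had been seen, over 3 pairs. Fcgr3 minus Fcgr2b, the activating against the inhibitory low-affinity receptor, was 1.11, 1.42 and 2.20 in null libraries and 0.825, 0.9998 and 1.14 in wild-type libraries (lowest, median and highest). The difference between genotypes was 0.57 (two-sided exact permutation test, p = 0.00433, adjusted over 3 pairs 0.0130, where the smallest possible p is 0.00216), but the null sets stood further apart than that, at 1.23 for libraries 1, 2 and 5 and 1.89 for libraries 3, 4 and 6, while wild-type libraries 1 to 3 and 4 to 6 averaged 0.97 and 1.01. Fcgr4 minus Fcgr2b did not pass the test, at a mean of -1.67 ± 0.32 in null and -1.22 ± 0.40 in wild-type libraries (SD, n = 6 each; exact permutation p = 0.0671, adjusted 0.101). Fcgr1 minus Fcgr2b averaged -0.75 ± 0.25 in null and -0.94 ± 0.40 in wild-type libraries (SD, n = 6 each; exact permutation p = 0.353), and the wild-type sets stood further apart, at -0.59 for libraries 1 to 3 and -1.30 for libraries 4 to 6. The permutations treat the 12 libraries as independent, which is in doubt within the sets.

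Among the 26 members that did not pass the filter, 3 were called lower in null in a fit with no filter. They were Clec4d, a lectin that pairs with Fcer1g, with means of 3.03 in null and 3.78 in wild-type libraries, and the natural killer complex genes Clec2g, at 3.28 in null and 4.05 in wild-type libraries, and Clec2i, at 3.60 in null and 4.28 in wild-type libraries. All 3 had null means near the 3.51 of undetected genes. In that fit 33.8% of all 23284 genes were called, with 3763 genes lower, so 3 of 26 says nothing particular about these members.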
